A study of Mus musculus with 6 samples.

Results

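The Kruppel-like factors are transcription factors with C-terminal zinc fingers, and 10 of their genes were followed here: Klf2, Klf3, Klf4, Klf5, Klf6, Klf7, Klf9, Klf10, Klf13 and Klf15. They were taken by name, as the rows of the deposited count table with these gene symbols, and made up 10 of the 44788 genes in it. The list of names was drawn up with earlier results of these data known. All 10 were found, and all 10 passed the filter on low counts that left 15362 tested genes. The 6 libraries came from chondrocytes of the femoral epiphysis of C57BL/6 mice at postnatal day 1 per the age label (the growth protocol writes P2, which it does not explain), cultured in DMEM/F12 with 10% FBS. TGF-alpha activates the EGF receptor, whose kinase gefitinib blocks. In the TGF-alpha plus gefitinib group, cells were given 10 µM gefitinib 30 min ahead of the ligand and were then kept with gefitinib and 10 ng/ml TGF-alpha for 48 h. In the TGF-alpha group, cells had the ligand at the same dose for 48 h without the inhibitor, and control cells had neither. All 3 groups received 0.1% DMSO, per the labels' treatment protocol, whereas the series design gives PBS for the control. Each group had 2 libraries, and none of the 6 libraries had gefitinib alone. Effects of gefitinib on the ligand response and apart from it therefore cannot be told apart. Nothing in the labels ties a replicate to its own culture or animal. The p-values therefore set group differences only against the spread of these samples, and that spread may be technical.

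Kruppel-like factors bind GC-rich and CACCC motifs in promoters and enhancers, and they differ in the proteins they recruit. Klf2, Klf4, Klf5, Klf6 and Klf7 are mostly activators, Klf3 represses through CtBP, and Klf9, Klf10 and Klf13 recruit the Sin3A corepressor. Several of them are early response genes of growth factors and serum in many cell types. In cartilage, mouse Klf5 has been tied to matrix degradation in the growth plate.

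Library totals lay between 12317407 and 16096263 counts, and members had from 31 counts (Klf5 in a TGF-alpha plus gefitinib library) to 1380 counts (Klf3 in a control library). Levels below are CPM, counts scaled to library size with TMM factors. Chondrocyte markers were abundant: the summed level of 8 markers, among them Col2a1, Acan and Sox9, was 54720 to 57566 CPM in TGF-alpha plus gefitinib libraries, 32892 to 34000 CPM in TGF-alpha libraries and 62257 to 66810 CPM in control libraries. Klf2 is best known from endothelium, and of 8 endothelial markers Cdh5, Cldn5, Emcn and Tie1 had no count in any library. The summed level of those 8 markers was 0.480 to 0.685 CPM with TGF-alpha plus gefitinib, 1.53 to 2.16 CPM with TGF-alpha and 0.234 to 0.382 CPM in control, against a Klf2 level between 5.74 and 17.4 CPM. Most of the sum with TGF-alpha was Flt1, at 1.51 and 1.38 CPM. Flt1 was at 0.0685 and 0 CPM with TGF-alpha plus gefitinib and 0.0781 and 0.127 CPM in control. Tek was instead highest with TGF-alpha plus gefitinib, at 0.548 and 0.480 CPM. It was at 0.361 and 0.0727 CPM with TGF-alpha and 0 and 0.255 CPM in control. The leukocyte genes Ptprc, Tyrobp, C1qa and C1qb were also at 0 counts in all 6 libraries. The summed leukocyte markers (7 in the table) ranged over 4.93 to 6.40 CPM with TGF-alpha plus gefitinib, 8.73 to 11.3 CPM with TGF-alpha and 4.29 to 4.46 CPM in control. Most of that sum in the TGF-alpha libraries was the lysosomal gene Cd68, at 2.19 and 2.96 CPM with TGF-alpha plus gefitinib, 8.22 and 9.74 CPM with TGF-alpha and 1.17 and 1.91 CPM in control. The lysozyme gene Lyz2 was lowest with TGF-alpha, at 2.54 and 2.96 CPM with TGF-alpha plus gefitinib, 0.288 and 1.24 CPM with TGF-alpha and 2.65 and 1.97 CPM in control. For 8 epithelial markers, of which Cldn4 was at 0 counts throughout, the sums were 3.28 to 4.32, 6.98 to 8.94 and 4.06 to 4.14 CPM in the same order of groups. For 8 adipocyte markers they were 13.6 to 14.3, 10.4 to 12.8 and 14.3 to 16.9 CPM. For 8 smooth muscle and pericyte markers, which include genes that cultured mesenchymal cells also express, they were 1361 to 1369, 1101 to 1132 and 1410 to 1494 CPM. Within that sum Acta2 was lowest with TGF-alpha, at 155 and 148 CPM. With TGF-alpha plus gefitinib it was at 435 and 473 CPM, and in control at 546 and 487 CPM. Tagln was instead highest with TGF-alpha, at 125 and 134 CPM. Its levels were 90.4 and 95.8 CPM with TGF-alpha plus gefitinib and 114.5 and 105 CPM in control. The part of these shifts in the results below was not tested. In bulk RNA, fewer cells with a transcript and less transcript per cell cannot be told apart.

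With the inhibitor added to the ligand, 7 of the 10 factors changed: Klf2, Klf15 and Klf3 rose, and Klf5, Klf10, Klf6 and Klf13 fell, relative to TGF-alpha alone (edgeR quasi-likelihood test, adjusted p under 0.05). The share of the 15362 tested genes called in that comparison was 34%, with 17% higher and 16.9% lower. The 10 factors were chosen with earlier results of these data known. Their counts here and below, set beside such shares, therefore give no rate for the whole family. Klf8, Klf11, Klf12, Klf14 and Klf16, tested outside the list, were not called in any comparison by edgeR. With TGF-alpha against control, 7 factors changed as well: Klf5, Klf10, Klf13 and Klf6 rose, and Klf2, Klf15 and Klf3 fell, beside 29.9% for the whole set of tested genes (15.9% higher and 14% lower). Between TGF-alpha plus gefitinib and control, Klf5 was called lower and the other 9 factors were not called, beside 9.52% for the whole set (5.27% higher and 4.26% lower). Klf4, Klf7 and Klf9 were called in none of these comparisons by edgeR. At an unadjusted p under 0.05, 8 members passed in the first comparison, 7 in the second and 3 in the third, beside 43%, 39% and 23.5% of all tested genes. DESeq2 called 5, 7 and 0 members, beside 22.6%, 18.9% and 9.09% of the genes to which it gave an adjusted p, and it gave none to Klf5 in the third. The first and second comparisons share the TGF-alpha libraries, so the 2 sets of signs are not independent of each other. The median log2 fold change of the 10 members was -0.17 with TGF-alpha plus gefitinib against TGF-alpha, 0.14 with TGF-alpha against control and -0.09 with TGF-alpha plus gefitinib against control, and over all tested genes it was 0.01, 0.00 and 0.00.

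**Figure D1:**
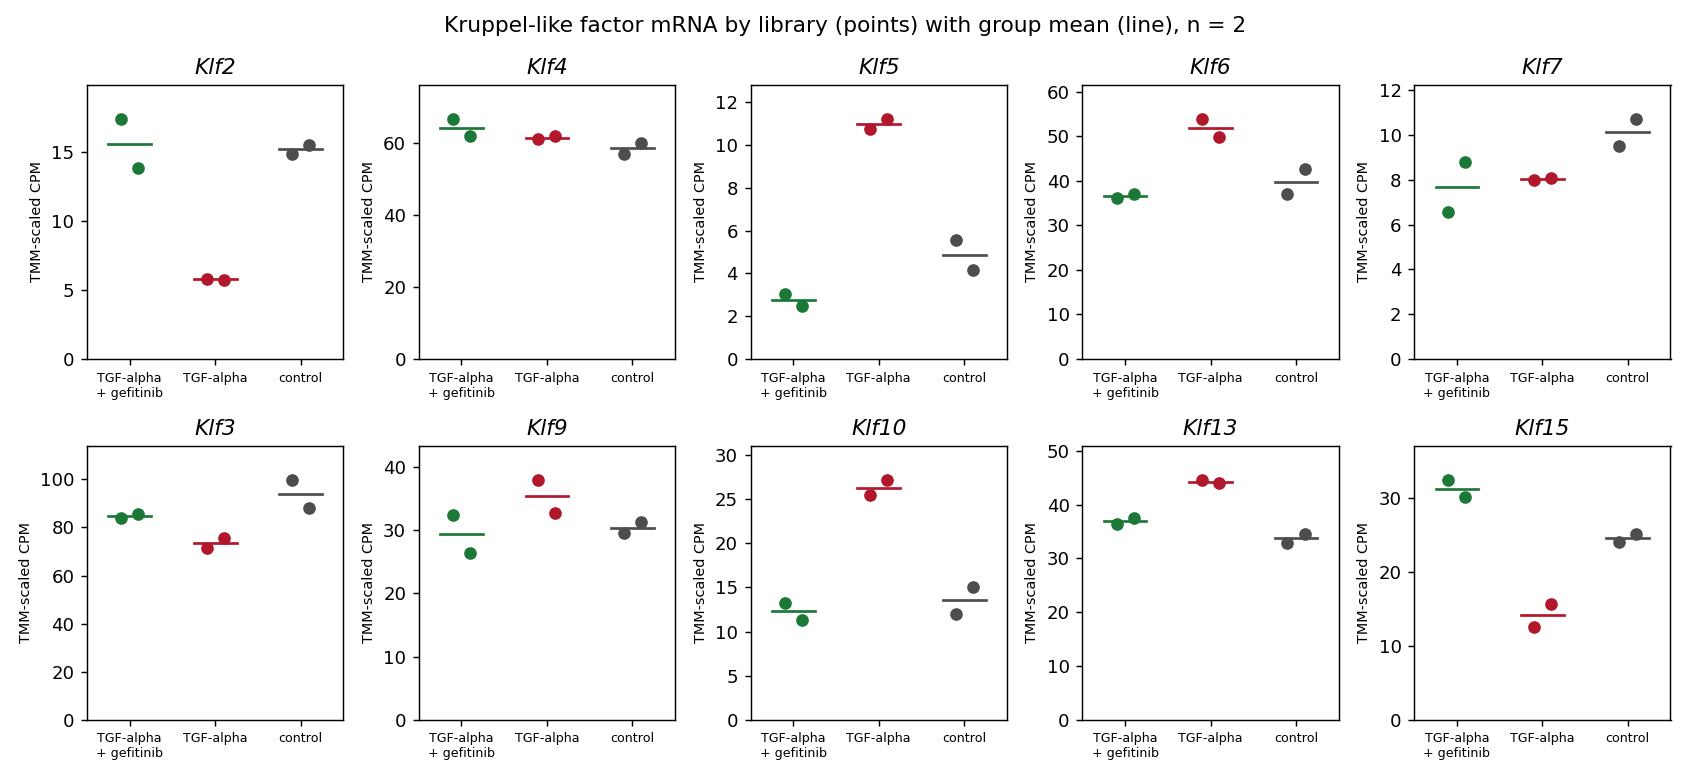
Level of each factor in TMM-scaled CPM (vertical axis, from 0) in the 6 libraries; points are libraries and lines are means of 2 libraries, for TGF-alpha plus gefitinib, TGF-alpha and control from left to right. The TGF-alpha libraries lie below both other groups for Klf2, Klf3 and Klf15, and above both for Klf5, Klf6, Klf9, Klf10 and Klf13.

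The promoters of 5 factors are shown because these genes moved in opposite directions or, for Klf4, were not called: Klf2 and Klf15 were lower with TGF-alpha, Klf6 and Klf13 were higher, and Klf4 was not called. RefSeq promoter windows (GRCm38.p6, 250 bases before to 50 after the transcription start, read on the gene's strand) were matched by symbol for 8 of the 10 factors. Klf5 and Klf10, which rose most with TGF-alpha against control (log2 1.19 and 0.95), had no matched window. Capitals mark matches, on either strand, to motifs that were searched. The GC box, which Kruppel-like and SP factors bind, was searched as GGGCGG, and the CACCC box as CCACACCC. The E-box, bound by MYC and clock factors, was searched with the letters CACGTG. The cyclic AMP response element (CRE) was TGACGTCA, and the AP-1 site of FOS and JUN was TGANTCA. The ETS motif was searched as CCGGAAG. The MEF2 motif was CTA and TAG with any 4 bases between them. The TATA box was searched by TATAAA. The CCAAT box was searched by the letters of its name, and the CArG box of serum response factor was also searched. The windows are chr8:72318812-72319111 on the plus strand for Klf2, chr6:90462326-90462625 plus for Klf15, chr13:5861239-5861538 plus for Klf6, chr7:63938866-63939165 minus for Klf13 and chr4:55532426-55532725 minus for Klf4.
Klf2: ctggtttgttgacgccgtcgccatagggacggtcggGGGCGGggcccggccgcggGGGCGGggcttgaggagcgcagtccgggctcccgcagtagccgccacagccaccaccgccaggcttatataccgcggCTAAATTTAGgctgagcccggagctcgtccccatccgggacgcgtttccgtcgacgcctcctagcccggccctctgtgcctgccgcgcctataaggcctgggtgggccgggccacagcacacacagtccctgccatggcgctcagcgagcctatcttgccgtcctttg
Klf15: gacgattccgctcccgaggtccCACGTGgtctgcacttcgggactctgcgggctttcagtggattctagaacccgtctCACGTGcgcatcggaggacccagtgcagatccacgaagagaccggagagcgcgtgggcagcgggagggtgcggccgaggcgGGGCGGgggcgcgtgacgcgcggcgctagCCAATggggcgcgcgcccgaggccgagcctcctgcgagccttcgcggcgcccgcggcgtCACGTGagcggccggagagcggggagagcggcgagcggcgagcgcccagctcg
Klf6: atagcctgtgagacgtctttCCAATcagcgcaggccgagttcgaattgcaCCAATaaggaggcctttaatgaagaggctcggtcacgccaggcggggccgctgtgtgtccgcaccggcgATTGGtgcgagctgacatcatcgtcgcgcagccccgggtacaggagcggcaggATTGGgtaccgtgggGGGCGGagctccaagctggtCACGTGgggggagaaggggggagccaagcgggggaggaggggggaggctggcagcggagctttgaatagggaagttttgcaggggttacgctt
Klf13: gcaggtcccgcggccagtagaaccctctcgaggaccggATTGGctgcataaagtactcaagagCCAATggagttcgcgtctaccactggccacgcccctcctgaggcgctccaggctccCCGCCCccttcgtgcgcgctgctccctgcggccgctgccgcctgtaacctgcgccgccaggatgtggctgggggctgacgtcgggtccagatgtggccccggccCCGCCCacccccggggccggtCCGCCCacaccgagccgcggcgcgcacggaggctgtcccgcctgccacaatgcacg
Klf4: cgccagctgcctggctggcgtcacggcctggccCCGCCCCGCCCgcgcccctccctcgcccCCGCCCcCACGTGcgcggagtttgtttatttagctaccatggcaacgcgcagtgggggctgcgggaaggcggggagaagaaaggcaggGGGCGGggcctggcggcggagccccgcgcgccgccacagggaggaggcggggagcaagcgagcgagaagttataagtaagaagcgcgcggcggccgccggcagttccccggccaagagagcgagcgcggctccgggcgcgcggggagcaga

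All 5 printed windows hold a GC box, as do 35.7% of the 32851 promoter windows of the same length. The GC content of these windows was 69.3% for Klf2, 73.3% for Klf15, 63.0% for Klf6, 72.0% for Klf13 and 74.3% for Klf4, against a median of 52.7% over all windows. The Klf2 window has a MEF2 match, CTAAATTTAG, at bases 133 to 142 counted from its 5′ end, a motif found in 3.69% of windows. The Klf15 window has 3 E-boxes, and 0.0883% of windows have at least 3, while 7.15% have at least 1. Klf6 and Klf4 each have 1 E-box. The Klf6 window has 4 CCAAT boxes (at least 4 in 1.06% of windows), Klf13 has 2 (at least 2 in 11.7%) and Klf15 has 1 (37.4%). In the Klf4 window the GC boxes at bases 34 and 39 overlap by 1 base, and no other matches overlap in these 5 windows. None of the 5 has a match to the CACCC box (3.56% of windows), CRE (1.79%), AP-1 (7.81%), ETS (8.86%), TATA box (13.6%) or CArG box (1.63%), which says only that these letters are not in these windows. Of the matched windows not printed, Klf3 has 6 GC boxes (at least 6 in 1.35% of windows) and Klf7 has 1. The Klf9 window has no GC box, 1 AP-1 match (TGAATCA) and 3 CCAAT boxes (at least 3 in 3.37%). These matches are descriptions and do not show that a factor binds.

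Among the activators, Klf2 had the largest fall with TGF-alpha of the 10 factors. Klf2, first described in lung and known for keeping endothelium and T cells quiescent, lies on chromosome 8 (72319033 to 72321656, GRCm38). It was at 17.4 and 13.8 CPM in the TGF-alpha plus gefitinib libraries, 5.84 and 5.74 CPM in the TGF-alpha libraries and 14.9 and 15.5 CPM in the control libraries. Both TGF-alpha libraries lay below the other 4, and the libraries with gefitinib spanned the control values. Klf2 was 2.70-fold higher with gefitinib than with TGF-alpha alone (log2 1.43 ± 0.16 SE, edgeR adjusted p = 4.65e-06). It was 2.63-fold lower with TGF-alpha than in control (log2 -1.39 ± 0.16, edgeR adjusted p = 6.84e-06). Between TGF-alpha plus gefitinib and control the log2 difference was 0.04 ± 0.14 (95% interval -0.25 to 0.34, edgeR adjusted p = 0.904).

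Klf4, a close relative of Klf2 and one of the factors that reprogram somatic cells to pluripotency, was not called in any comparison. Its levels were 66.6 and 61.9 CPM with TGF-alpha plus gefitinib, 61.2 and 61.8 CPM with TGF-alpha and 57.1 and 60.0 CPM in control. The TGF-alpha libraries lay between the other groups, without overlap, and the spread within the gefitinib and control groups was larger than the gaps between groups. Its log2 difference was 0.06 with TGF-alpha plus gefitinib against TGF-alpha (95% interval -0.08 to 0.21), 0.07 with TGF-alpha against control (-0.08 to 0.22) and 0.13 with TGF-alpha plus gefitinib against control (-0.01 to 0.28). None of these 3 intervals reaches those of Klf2 in the first and second comparisons, which were 1.10 to 1.77 and -1.73 to -1.06.

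Klf5, a growth-promoting factor of epithelia and smooth muscle (chromosome 14, 99298691 to 99315036), was at 3.01 and 2.48 CPM with TGF-alpha plus gefitinib, 10.7 and 11.2 CPM with TGF-alpha and 5.54 and 4.14 CPM in control. These levels rest on 44 and 31 counts, 149 and 154 counts, and 71 and 65 counts. The 3 groups did not overlap, with TGF-alpha highest and TGF-alpha plus gefitinib lowest. Klf5 fell 3.97-fold with gefitinib relative to TGF-alpha alone (log2 -1.99 ± 0.22, edgeR adjusted p = 5.19e-06) and rose 2.28-fold with TGF-alpha relative to control (log2 1.19 ± 0.20, edgeR adjusted p = 0.000347). With TGF-alpha plus gefitinib it was 1.74-fold lower than in control (log2 -0.80 ± 0.24, edgeR adjusted p = 0.0481). That last call was lost without any 1 of the 6 libraries: adjusted p was 0.279 without control 1, 0.0519 without control 2, 0.0737 and 0.0754 without TGF-alpha 1 and 2, and 0.0712 and 0.212 without TGF-alpha plus gefitinib 1 and 2.

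Klf6, a zinc finger factor induced after injury in several tissues (chromosome 13, 5861482 to 5870394), had 36.1 and 37.1 CPM with TGF-alpha plus gefitinib, 53.8 and 49.7 CPM with TGF-alpha and 37.0 and 42.6 CPM in control. The TGF-alpha libraries lay above the other 4, and the libraries with gefitinib overlapped those of control. It fell 1.41-fold with gefitinib relative to TGF-alpha alone (log2 -0.50 ± 0.09, edgeR adjusted p = 0.000400) and rose 1.30-fold with TGF-alpha relative to control (log2 0.38 ± 0.09, edgeR adjusted p = 0.00370). The rise was no longer called without control 1 (edgeR adjusted p = 0.0617) or without TGF-alpha 1 (0.0512). Klf7, known from neuronal development, was near the low end of the family at 6.58 and 8.80 CPM with TGF-alpha plus gefitinib, 8.005 and 8.07 CPM with TGF-alpha and 9.52 and 10.7 CPM in control. It was not called, and its 95% intervals on the log2 scale were -0.46 to 0.32, -0.71 to 0.04 and -0.79 to -0.03 for TGF-alpha plus gefitinib against TGF-alpha, TGF-alpha against control and TGF-alpha plus gefitinib against control.

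Klf3, the repressor that works through CtBP (chromosome 5, 64803388 to 64832901), had the highest count of the 10 factors. It was at 83.8 and 85.6 CPM with TGF-alpha plus gefitinib, 71.6 and 75.5 CPM with TGF-alpha and 99.7 and 87.9 CPM in control. The 3 groups did not overlap, and the TGF-alpha libraries were lowest. It was 1.15-fold higher with gefitinib than with TGF-alpha alone (log2 0.20 ± 0.07, edgeR adjusted p = 0.0373) and 1.27-fold lower with TGF-alpha than in control (log2 -0.35 ± 0.07, edgeR adjusted p = 0.00136). The rise with gefitinib was not called by DESeq2 (adjusted p = 0.131) nor without TGF-alpha 1 (0.222), TGF-alpha 2 (0.0706), TGF-alpha plus gefitinib 1 (0.0942) or TGF-alpha plus gefitinib 2 (0.111).

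**Figure D2:**
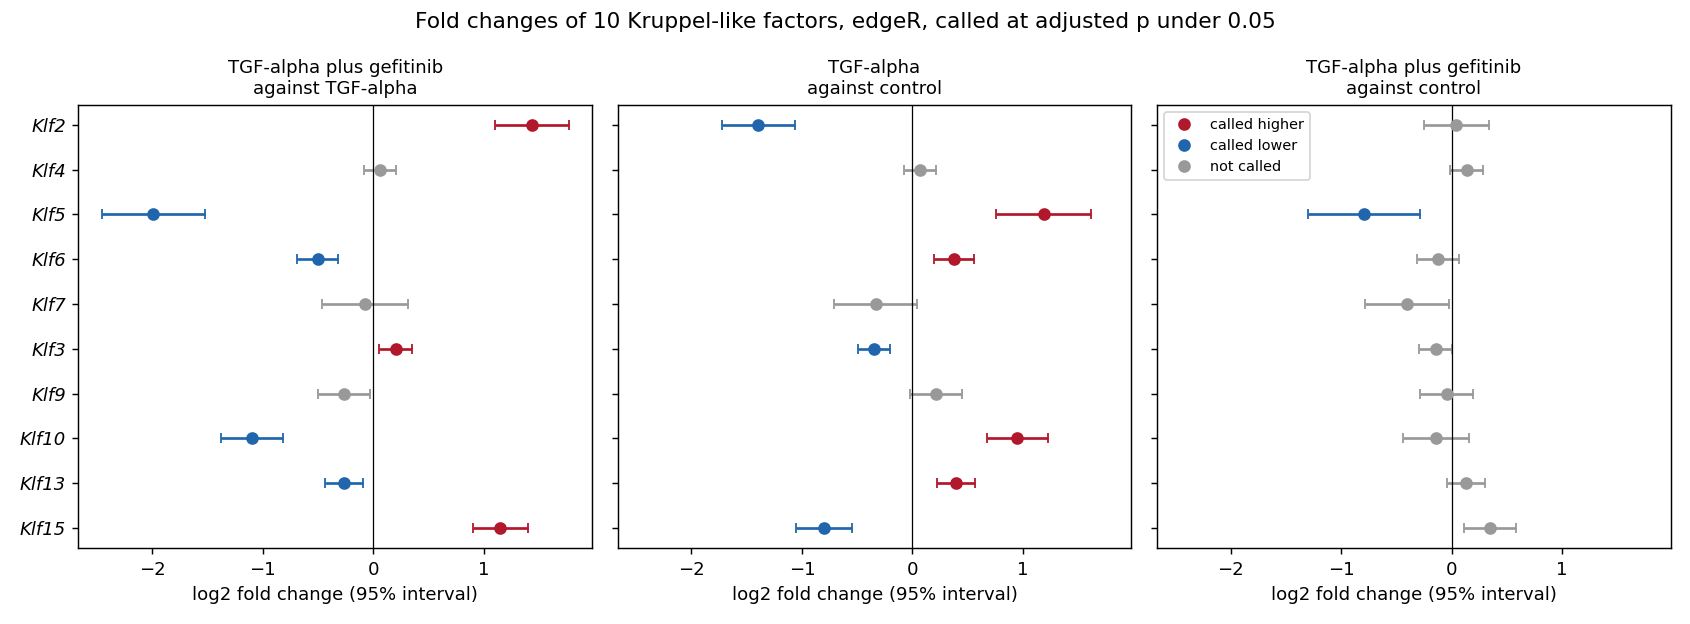
Log2 fold change (horizontal axis) of each factor in the 3 comparisons, with 95% intervals from edgeR; red is called higher, blue called lower and grey not called at an adjusted p under 0.05. Klf2, Klf3, Klf5, Klf6, Klf10, Klf13 and Klf15 are called with opposite signs in the left and middle panels, which share the TGF-alpha libraries, and Klf5 is the 1 called factor in the right panel.

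Of the Sin3A-binding factors, Klf10 moved most. Klf10, first cloned as TGF-beta inducible early gene (chromosome 15, 38291463 to 38300706), was at 13.2 and 11.4 CPM with TGF-alpha plus gefitinib, 25.5 and 27.2 CPM with TGF-alpha and 12.02 and 15.1 CPM in control. Both TGF-alpha libraries lay above the other 4, which overlapped. Klf10 fell 2.13-fold with gefitinib relative to TGF-alpha alone (log2 -1.09 ± 0.13, edgeR adjusted p = 1.22e-05) and rose 1.93-fold with TGF-alpha relative to control (log2 0.95 ± 0.13, edgeR adjusted p = 4.49e-05). Between TGF-alpha plus gefitinib and control its log2 difference was -0.15 (95% interval -0.44 to 0.15).

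Klf13, known in T cells as an activator of the chemokine gene Ccl5 (chromosome 7, 63886351 to 63938915), was at 36.3 and 37.4 CPM with TGF-alpha plus gefitinib, 44.6 and 44.0 CPM with TGF-alpha and 32.9 and 34.5 CPM in control. The groups did not overlap, with TGF-alpha highest and control lowest. It fell 1.20-fold with gefitinib relative to TGF-alpha alone (log2 -0.26 ± 0.08, edgeR adjusted p = 0.0189) and rose 1.31-fold with TGF-alpha relative to control (log2 0.39 ± 0.08, edgeR adjusted p = 0.00163). The fall was not called by DESeq2 (adjusted p = 0.115) nor without TGF-alpha 1 (0.0870), TGF-alpha 2 (0.0660), TGF-alpha plus gefitinib 1 (0.0798) or TGF-alpha plus gefitinib 2 (0.0524). Klf9, a target gene of thyroid hormone and glucocorticoid receptors, was at 32.3 and 26.3 CPM with TGF-alpha plus gefitinib, 37.9 and 32.7 CPM with TGF-alpha and 29.5 and 31.2 CPM in control. Its log2 difference was -0.26 with TGF-alpha plus gefitinib against TGF-alpha (95% interval -0.50 to -0.03, edgeR adjusted p = 0.0803) and 0.22 with TGF-alpha against control (-0.02 to 0.45, adjusted p = 0.159). Over the fits without 1 library, the first of these log2 differences of Klf9 ran from -0.44 to -0.12. The value of -0.44 came without TGF-alpha plus gefitinib 1, the library of that group with the higher level.

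Klf15, a regulator of glucose and amino acid metabolism that glucocorticoids induce in liver, muscle and other tissues (chromosome 6, 90462576 to 90475238), shared the direction of Klf2. It was at 32.5 and 30.1 CPM with TGF-alpha plus gefitinib, 12.6 and 15.6 CPM with TGF-alpha and 24.1 and 25.1 CPM in control. The 3 groups did not overlap, and the libraries with gefitinib were highest. Klf15 was 2.22-fold higher with gefitinib than with TGF-alpha alone (log2 1.15 ± 0.12, edgeR adjusted p = 2.24e-06) and 1.74-fold lower with TGF-alpha than in control (log2 -0.80 ± 0.12, edgeR adjusted p = 0.000101). With TGF-alpha plus gefitinib it was 1.27-fold above control, a difference that missed the threshold (log2 0.35 ± 0.11, 95% interval 0.11 to 0.58, edgeR adjusted p = 0.0609). Over the fits without 1 library, this log2 difference ran from 0.29 to 0.40. It stayed uncalled in 10 of 14 alternative analyses.

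**Figure D3:**
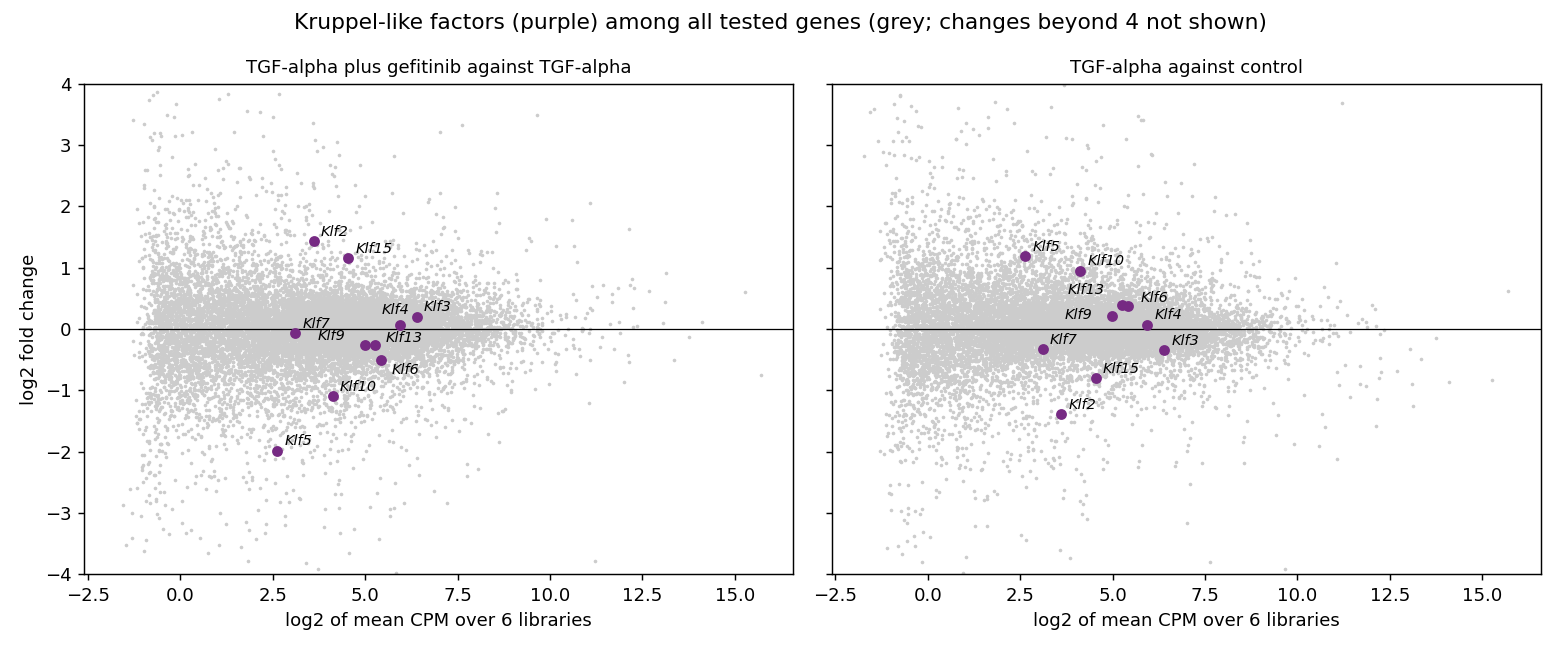
Log2 fold change (vertical axis) against the log2 of mean CPM over 6 libraries (horizontal axis) for all tested genes (grey) and the 10 factors (purple), with TGF-alpha plus gefitinib against TGF-alpha on the left and TGF-alpha against control on the right. Klf5 and Klf2 lie at the outer part of the family, at -1.99 and 1.43 on the left and at 1.19 and -1.39 on the right.

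Over the chosen factors, libraries of the 2 groups compared did not overlap for 9 of 10 with TGF-alpha plus gefitinib against TGF-alpha, 10 of 10 with TGF-alpha against control and 6 of 10 with TGF-alpha plus gefitinib against control. The shares over all tested genes were 65.8%, 64.1% and 52.1%. The sum of the 10 factors, which was not tested, was 328 and 315 CPM with TGF-alpha plus gefitinib, 332 and 332 CPM with TGF-alpha and 322 and 327 CPM in control.

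To compare levels between genes, CPM was divided by the length of the gene's merged exons in GENCODE M21, which gives CPM per kb. The order rests on that length, which merges all annotated transcripts (11243 bases from 9 transcripts for Klf3, 3049 from 3 for Klf4). Which transcripts the cells express was not examined. Without it Klf3 was above Klf4, averaging 84.7 against 64.2 CPM with TGF-alpha plus gefitinib, 73.6 against 61.5 with TGF-alpha and 93.8 against 58.5 in control. On that scale Klf4 ranked first in each group, at 21.1 ± 1.09 CPM per kb with TGF-alpha plus gefitinib, 20.2 ± 0.134 with TGF-alpha and 19.2 ± 0.680 in control (SD, n = 2 each), or 29.3%, 29.1% and 27.5% of the family sum. Klf2 had rank 3 with TGF-alpha plus gefitinib (8.46 ± 1.37 CPM per kb), rank 8 with TGF-alpha (3.14 ± 0.0372) and rank 5 in control (8.24 ± 0.241). Klf15 had rank 2 with TGF-alpha plus gefitinib (11.2 ± 0.591 CPM per kb), rank 7 with TGF-alpha (5.06 ± 0.763) and rank 3 in control (8.82 ± 0.246). Klf10 had rank 8 with TGF-alpha plus gefitinib (2.94 ± 0.316 CPM per kb), rank 5 with TGF-alpha (6.30 ± 0.294) and rank 8 in control (3.24 ± 0.520). The full order in TGF-alpha plus gefitinib libraries was Klf4, Klf15, Klf2, Klf6, Klf3, Klf9, Klf13, Klf10, Klf7 and Klf5, and of the neighbours only Klf2 and Klf6 overlapped. In TGF-alpha libraries the order was Klf4, Klf6, Klf9, Klf3, Klf10, Klf13, Klf15, Klf2, Klf5 and Klf7, with overlap between Klf3 and Klf10 only. In control libraries it was Klf4, Klf6, Klf15, Klf3, Klf2, Klf9, Klf13, Klf10, Klf7 and Klf5, where Klf6 overlapped Klf15, Klf15 overlapped Klf3 and Klf3 overlapped Klf2.

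**Figure D4:**
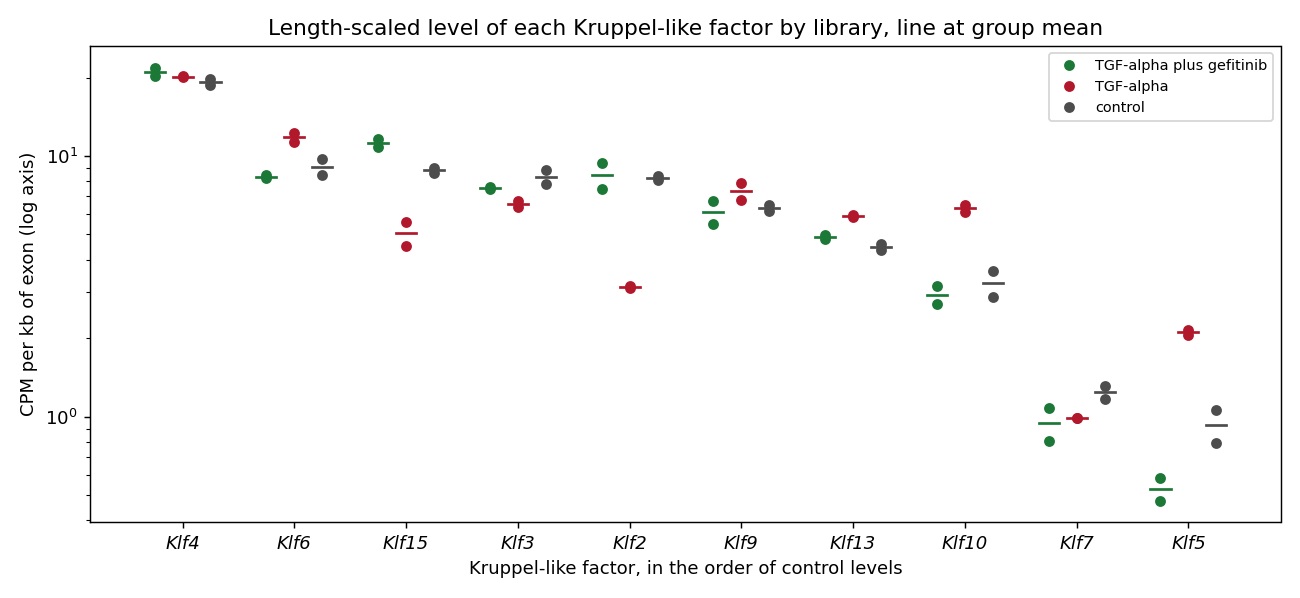
CPM per kb of merged exon (logarithmic vertical axis) for each factor, in the order of the control levels; points are libraries and lines are group means, with TGF-alpha plus gefitinib, TGF-alpha and control side by side. Klf4 is near 20 in each group, while Klf2 and Klf15 average 3.14 and 5.06 with TGF-alpha.

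Little sequence was shared that could move reads between family members. Of all 50-base stretches in the GENCODE M21 transcripts of each factor, the share that also occurs in a transcript of another gene was 0.350% for Klf3, 0.263% for Klf4, 0.147% for Klf13 and 0.078% for Klf5, with none shared for the other 6 factors and none between 2 of the 10. GENCODE M21 places 8 other genes over Klf3, Klf7, Klf9 or Klf13. Of these, Mir6899, Mir1192 and E030018B13Rik were in the count table, at 0 counts, and the other 5 were not matched by symbol. Antisense genes reach into exons of Klf3 and Klf7, and whether counting used strand is not given in the sources used here.

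Of the wider family, 16 more KLF and SP genes were in the table and 10 of them were tested. Sp7 (osterix), a bone and hypertrophic cartilage factor, rose with gefitinib and fell with TGF-alpha: it averaged 17.5 ± 2.53 CPM with TGF-alpha plus gefitinib, 8.44 ± 1.43 CPM with TGF-alpha and 16.6 ± 1.84 CPM in control (SD, n = 2 each). Its log2 changes were 1.05 ± 0.16 with TGF-alpha plus gefitinib against TGF-alpha (edgeR adjusted p = 0.000107) and -0.98 ± 0.16 with TGF-alpha against control (edgeR adjusted p = 0.000229). Sp1, a ubiquitous GC-box factor, fell by 0.42 on the log2 scale with gefitinib (edgeR adjusted p = 0.000207) and rose by 0.25 with TGF-alpha (adjusted p = 0.0111). The other 8 tested genes were not called in any comparison by edgeR: Klf8, Klf11, Klf12, Klf14, Klf16, Sp2, Sp3 and Sp4. Klf17, Sp5, Sp8 and Sp9 had 0 counts in all libraries, and Klf1 and Sp6 had at most 12. Against control, the libraries with TGF-alpha plus gefitinib gave 0 edgeR calls among these 10, 1 passed at an unadjusted p under 0.05, and DESeq2 called 0. The edgeR shares over all tested genes were 34% with TGF-alpha plus gefitinib against TGF-alpha and 29.9% with TGF-alpha against control. With TGF-alpha plus gefitinib against control the share was 9.52%.

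Among 14 corepressors, coactivators and ubiquitin ligases of KLFs, the corepressor scaffold gene Sin3a (log2 -0.24 ± 0.08, edgeR adjusted p = 0.0241) and the ubiquitin ligase gene Fbxw7 (log2 -0.43 ± 0.13, adjusted p = 0.0209) fell with TGF-alpha plus gefitinib against TGF-alpha and 0 rose (0 higher and 3 lower at an unadjusted p under 0.05, and 0 of either by DESeq2). With TGF-alpha against control edgeR called 0 of the 14, 2 passed at an unadjusted p under 0.05, and DESeq2 called 0. Against control, TGF-alpha plus gefitinib gave 0 calls by edgeR, 4 at an unadjusted p under 0.05 and 0 by DESeq2. The median log2 change of this list was -0.04, -0.01 and -0.08 in the 3 comparisons. In the same order, edgeR called 34%, 29.9% and 9.52% of all tested genes.

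The MEK5-ERK5-MEF2 pathway, a known inducer of Klf2 and Klf4 in endothelium, had 7 tested members. Mef2a, a MEF2 transcription factor gene, averaged 79.6 ± 1.10 CPM with TGF-alpha plus gefitinib, 103 ± 6.18 CPM with TGF-alpha and 90.9 ± 2.89 CPM in control. It fell by 0.38 on the log2 scale with gefitinib relative to TGF-alpha (edgeR adjusted p = 0.000271) and rose by 0.19 with TGF-alpha relative to control (adjusted p = 0.0342). The kinase gene Map3k2 also fell with gefitinib (log2 -0.33, edgeR adjusted p = 0.0321) and rose with TGF-alpha (0.35, adjusted p = 0.0246). The kinase gene Map3k3 rose with gefitinib (log2 0.20, edgeR adjusted p = 0.0157) and fell with TGF-alpha (-0.24, adjusted p = 0.00662). The other 4 were not called in either of these comparisons. Of the 7, edgeR called 0 with TGF-alpha plus gefitinib against control, 1 passed at an unadjusted p under 0.05, and DESeq2 called 0. Over all tested genes it called 34% with TGF-alpha plus gefitinib against TGF-alpha and 29.9% with TGF-alpha against control by edgeR. The edgeR share with TGF-alpha plus gefitinib against control was 9.52%.

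Genes of glucocorticoid, thyroid hormone and clock control moved in both directions. The list mixes hormone targets, some of which share inducers with Klf9 and Klf15, with receptor genes and core clock genes. Of 15 tested, 4 rose and 7 fell with TGF-alpha plus gefitinib against TGF-alpha (median log2 -0.26), and 5 rose and 3 fell with TGF-alpha against control (median 0.20). The shares called over all tested genes were 34% and 29.9% in these comparisons, and 9.52% with TGF-alpha plus gefitinib against control. Fkbp5, an immunophilin gene and classic glucocorticoid target, averaged 13.3 ± 2.34 CPM with TGF-alpha plus gefitinib, 36.0 ± 1.34 CPM with TGF-alpha and 15.4 ± 1.81 CPM in control. It fell by 1.44 on the log2 scale with gefitinib (edgeR adjusted p = 5.43e-07) and rose by 1.22 with TGF-alpha (adjusted p = 2.58e-06). Among genes of this list picked after their values were seen, the glucocorticoid target Tsc22d3 moved the other way, at 26.0 and 25.7 CPM with TGF-alpha plus gefitinib, 20.3 and 18.7 CPM with TGF-alpha and 25.5 and 25.03 CPM in control. It rose by 0.41 on the log2 scale with gefitinib (edgeR adjusted p = 0.00575) and was lower with TGF-alpha than in control (log2 -0.37, adjusted p = 0.0110). Zbtb16, a further glucocorticoid target, was at 1.58 and 1.36 CPM with TGF-alpha plus gefitinib, 0.721 and 0.873 CPM with TGF-alpha and 1.48 and 1.46 CPM in control, and was not called. Dusp1, a MAP kinase phosphatase gene, fell by 0.77 on the log2 scale with gefitinib (edgeR adjusted p = 9.15e-05) and rose by 1.01 with TGF-alpha (adjusted p = 7.63e-06). Thra, which encodes a thyroid hormone receptor, rose by 0.40 with gefitinib (edgeR adjusted p = 5.20e-05) and was lower with TGF-alpha than in control (log2 -0.47, adjusted p = 1.20e-05). Per2, a clock repressor gene picked after its value was seen, was lower with TGF-alpha plus gefitinib than in control (log2 -0.70, edgeR adjusted p = 0.0176), and the other 14 were not called.

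Among 12 TGF-beta response genes, 1 rose and 5 fell with TGF-alpha plus gefitinib against TGF-alpha, and 4 rose and 3 fell with TGF-alpha against control. Beside these stand 34% and 29.9% of all tested genes called, and 9.52% with TGF-alpha plus gefitinib against control. The ligand gene Tgfb1 fell by 1.05 on the log2 scale with gefitinib (edgeR adjusted p = 3.20e-07) and rose by 1.26 with TGF-alpha (adjusted p = 5.39e-08). Tgfbr2, a TGF-beta receptor gene, was lower with TGF-alpha than in control (log2 -0.49, edgeR adjusted p = 7.80e-07) and lower with TGF-alpha plus gefitinib than in control (log2 -0.48, adjusted p = 9.16e-06). Its log2 difference between TGF-alpha plus gefitinib and TGF-alpha was 0.01 (edgeR adjusted p = 0.928). Of the 12, 3 were lower and 0 higher with TGF-alpha plus gefitinib than in control by edgeR, and at an unadjusted p under 0.05 they were 6 and 3, while DESeq2 called 1 lower and 0 higher.

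Of 10 cell cycle genes known as KLF targets, 2 rose and 5 fell with TGF-alpha plus gefitinib against TGF-alpha, and 5 rose and 1 fell with TGF-alpha against control. For all tested genes the shares called were 34% and 29.9%, and 9.52% with TGF-alpha plus gefitinib against control. Cdkn1c, a cyclin-dependent kinase inhibitor gene of growth plate cartilage, averaged 348 ± 17.1 CPM with TGF-alpha plus gefitinib, 150 ± 17.4 CPM with TGF-alpha and 359 ± 2.87 CPM in control. Like Klf2 it was lowest with TGF-alpha, with log2 changes of 1.21 ± 0.07 with gefitinib (edgeR adjusted p = 3.15e-09) and -1.26 ± 0.07 with TGF-alpha (adjusted p = 2.19e-09). Ccnd1, the cyclin D1 gene, fell by 1.07 on the log2 scale with gefitinib (edgeR adjusted p = 4.54e-10) and rose by 0.96 with TGF-alpha (adjusted p = 1.56e-09). Ccna2, the cyclin A2 gene, fell by 1.40 with gefitinib (edgeR adjusted p = 3.01e-08) and rose by 1.32 with TGF-alpha (adjusted p = 5.64e-08). Cdkn1a, a further kinase inhibitor gene picked after its value was seen, was higher with TGF-alpha plus gefitinib than in control (log2 0.30, edgeR adjusted p = 0.00540), and the other 9 were not called.

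Of 10 matrix genes tied to KLFs in cartilage 8 were tested, of which 2 rose and 4 fell with TGF-alpha plus gefitinib against TGF-alpha, 4 rose and 3 fell with TGF-alpha against control, and 4 fell with TGF-alpha plus gefitinib against control. In these comparisons 34%, 29.9% and 9.52% of all tested genes were called. The type I collagen genes Col1a1 and Col1a2 rose by 0.72 and 0.43 on the log2 scale with gefitinib (edgeR adjusted p = 7.33e-08 and 2.52e-06) and were lower with TGF-alpha than in control (log2 -1.14 and -0.89, adjusted p = 5.42e-10 and 1.23e-09). They were also lower with TGF-alpha plus gefitinib than in control (log2 -0.42 and -0.46, edgeR adjusted p = 0.000119 and 1.45e-05). Timp3, a metalloproteinase inhibitor gene, fell by 0.43 with gefitinib (edgeR adjusted p = 9.72e-07) and rose by 0.32 with TGF-alpha (adjusted p = 1.99e-05).

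Genes most like the 3 factors with the smallest p under gefitinib were found by Pearson correlation of log2 CPM over the 6 libraries, among the 11266 tested genes whose mean was 5 CPM or more. For Klf15 they were Sh3gl1 (r = 0.999), Bap1 (0.998) and Tmem150a (0.998), for Klf2 they were Gadd45g (0.999), Mfsd7c (0.998) and Scamp5 (0.998), and for Klf5 they were Rttn (0.998), Fnbp1 (0.998) and Kank2 (0.997). Values of r this high were common: 383, 578 and 401 genes had r over 0.95 with Klf15, Klf2 and Klf5. The 6 points are 3 groups of 2 libraries, and likeness in r is not likeness in size. The log2 change with gefitinib against TGF-alpha was 0.45 for Sh3gl1 and 1.15 for Klf15, and 0.90 for Gadd45g and 1.43 for Klf2.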

How the data were processed

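Total RNA was made into Ion Proton libraries, per the labels' protocols, which give no extraction method. The authors deposited 1 table of raw read counts per gene, with 1 column per library and no normalization. The submitters' processing notes name GRCm38. Which aligner, counter, annotation and strand setting were used is not given in the sources used here.

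The test used edgeR 4.0.16 under R 4.3.3: filterByExpr with a minimum count of 10, TMM scaling, and a quasi-likelihood fit (glmQLFit, glmQLFTest) of group over all 6 libraries, with 3 residual degrees of freedom. The fit also borrowed spread across genes, with a median of 11.2 prior degrees of freedom. Tests were two-sided, adjusted by Benjamini-Hochberg over 15362 genes, and called at an adjusted p under 0.05. The SE is the absolute log2 fold change divided by the square root of F. DESeq2 1.42.0, other scalings and filters, a replicate block and leaving out each library were alternatives. The fit was tested on simulated data. Gene positions came from GENCODE M21 and promoters from RefSeq.

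The members and lists were chosen with earlier results of these data known. Named genes were the 10 members, up to 3 called genes with the smallest p of each further list, and the 3 genes most correlated with each of 3 members. Any other gene is marked as picked after its value was seen. A gene that this rule names is not reported here. Within groups, replicates were farther apart than counting error (chi-square per degree of freedom 3.83, 3.57 and 3.03 for TGF-alpha plus gefitinib, TGF-alpha and control).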

Additional observations from a re-analysis of the deposited data

How the results depend on the processing

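In 14 alternatives the 5 factors Klf2, Klf5, Klf6, Klf10 and Klf15 kept their call and direction with TGF-alpha plus gefitinib against TGF-alpha, and the 6 factors Klf2, Klf3, Klf5, Klf10, Klf13 and Klf15 with TGF-alpha against control. With TGF-alpha plus gefitinib against TGF-alpha, between 5 and 8 of the 10 factors were called, and with TGF-alpha against control 6 or 7. Where leaving out a library left a group with 1, that library was taken to vary like the other groups. With TGF-alpha plus gefitinib against control, leaving out a library left 0 or 1 factors called (0 or 1 higher, 0 lower). Library totals without a scaling factor gave 1 higher (Klf15) and 0 lower there, the fit of only those 2 groups also gave 1 higher and 0 lower, no low-count filter gave 2 in all with 1 higher, and DESeq2 gave 0 in all and 0 lower, with no adjusted p for Klf5.

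No pairing by replicate number was visible: over all tested genes, differences between replicate 1 and 2 correlated at -0.0228, 0.0108 and 0.00340 between groups. Noise in genes with few counts can lower such correlations, so a shared culture or animal is not excluded. With the replicate number as a block, 5042, 4450 and 1335 genes were called in place of 5217, 4600 and 1463, and 0 factors in all and 0 lower with TGF-alpha plus gefitinib against control (Klf5, log2 -0.80, adjusted p = 0.0592). Klf3 also missed the threshold with the block for TGF-alpha plus gefitinib against TGF-alpha (adjusted p = 0.0505).

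Over all genes, DESeq2 called 3472 with TGF-alpha plus gefitinib against TGF-alpha (1646 higher), 3092 with TGF-alpha against control (1435 lower) and 912 with TGF-alpha plus gefitinib against control (475 higher). Library totals without a scaling factor gave 1333 higher and 388 lower with TGF-alpha plus gefitinib against control, in place of 809 and 654, and 3034 higher and 1604 lower with TGF-alpha against control, in place of 2446 and 2154. Leaving out a library gave 649 to 1291 calls with TGF-alpha plus gefitinib against control, 375 to 731 higher and 274 to 560 lower. DESeq2 also called fewer genes of the partner list with TGF-alpha plus gefitinib against TGF-alpha (0 for 2), of the MEF2 pathway (1 for 3) and of the hormone and clock list (7 for 11). With TGF-alpha against control it called 1 for 2 of the wider family, 1 for 3 of the MEF2 pathway and 4 for 8 of the hormone and clock list, and with TGF-alpha plus gefitinib against control 1 for 3 TGF-beta response genes.

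The direction turned for uncalled differences only. Over the fits without 1 library, the log2 difference with TGF-alpha plus gefitinib against TGF-alpha ran from -0.0050 to 0.12 for Klf4 and from -0.29 to 0.12 for Klf7. Against control it ran from -0.14 to 0.19 for Klf2, from -0.21 to 0.090 for Klf9 and from -0.29 to 0.035 for Klf10. Klf9 was at 0.017 there with no scaling factor. The cause was not tested. Klf9 was called lower with gefitinib against TGF-alpha with no low-count filter (adjusted p = 0.0485), and Klf15 was called higher with TGF-alpha plus gefitinib against control with no filter (0.0378), no scaling factor (0.0273) or only those 2 groups (0.0453). With 31 to 44 counts, Klf5 had the fewest counts of the factors in the TGF-alpha plus gefitinib libraries. The part of depth in its results was not tested.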
